A study of Homo sapiens with 9 samples.

Results

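The comparison described here sets clone 37 against clone 15, single-cell clones of HEK293T that carry the same pair of integrated reporters. It rests on 6 of the 9 libraries of the series, 3 replicates of each clone, and on all 60683 gene identifiers of the count files, of which 17712 had enough counts to be tested. HEK293T is an established line of transformed human embryonic kidney cells. The piggyBac transposon had carried 2 constructs into its genome, each with a start codon and a Myc tag. The first encodes NanoLuc and holds 60 CAG units, and the other encodes firefly luciferase and holds 0 CAG units. Both clones carry both constructs and differ, per the labels, in integrand expression, high in clone 37 and low in clone 15. The 3 libraries of parental cells, which carry neither construct, are given as levels for orientation only. Each level of integrand expression is represented by 1 clone, so that it cannot be told apart from any other difference between the clones. All groups were grown in the same medium, and no treatment was recorded.

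Total RNA was depleted of ribosomal RNA and sequenced as paired reads of 75 bp for clone 37 and 100 bp for clone 15, so clone and read length cannot be told apart. Gene counts on the transcript strand summed to between 10334090 and 12352171 in clone 37 and between 18654063 and 38093340 in clone 15. Read pairs that mapped to several places made up 10.4% to 11.7% of the total in clone 37 and 4.59% to 5.98% in clone 15. Their part in the differences below was not tested beyond refitting the genes that share less than 5% of their sequence with another gene. The first principal component of log2 CPM (each gene's count scaled to a common library total) held 78.6% of the variance among the 6 libraries and separated the clones. The labels do not say whether replicates were separate cultures, so p values measure the spread between libraries, which may be technical.

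Of the 16 markers that HEK293T cells are known for, all 16 were tested, with 3 higher and 8 lower in clone 37. The share that differed was 68.8%, against 57.7% of all tested genes. Other cell types were looked for with 3 further lists. Blood cell markers summed to 3.81 to 4.56 CPM in clone 37 and 2.91 to 3.15 in clone 15, with 4 of 16 at 0 in every library, and endothelial markers to 2.46 to 2.85 and 3.16 to 5.06 CPM, with 2 of 10 at 0. Fibroblast markers gave another picture. The summed level of the 12 genes was 87.0, 94.4 and 90.9 CPM in clone 37 and 102, 118 and 232 CPM in clone 15 replicates 1, 2 and 3, against 111, 109 and 107 CPM in parental cells. The collagen gene COL1A2 read 0, 0 and 0 CPM in clone 37, 5.59, 12 and 56.8 CPM in clone 15 and 0, 0 and 0 CPM in parental cells. In clone 15 replicate 3, 15 genes were at least 3 times as high as in either other clone 15 library, and 14 of them were protein-coding, among them COL1A2, COL3A1, COL6A3, TGFBI, GREM1, THBS1 and IGFBP3. Clone 15 replicate 2 had 36 such genes, of which 33 were pseudogenes, and replicate 1 had 0. COL1A2 was counted in all 3 clone 15 libraries and in no other library. Whether RNA or cells of another source entered the clone 15 libraries was not tested. In bulk RNA, fewer cells of a type and less RNA per cell cannot be told apart. Matrix and TGF-beta genes are therefore given with this library named, and its part in results outside them was not tested beyond leaving it out.

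**Figure D1:**
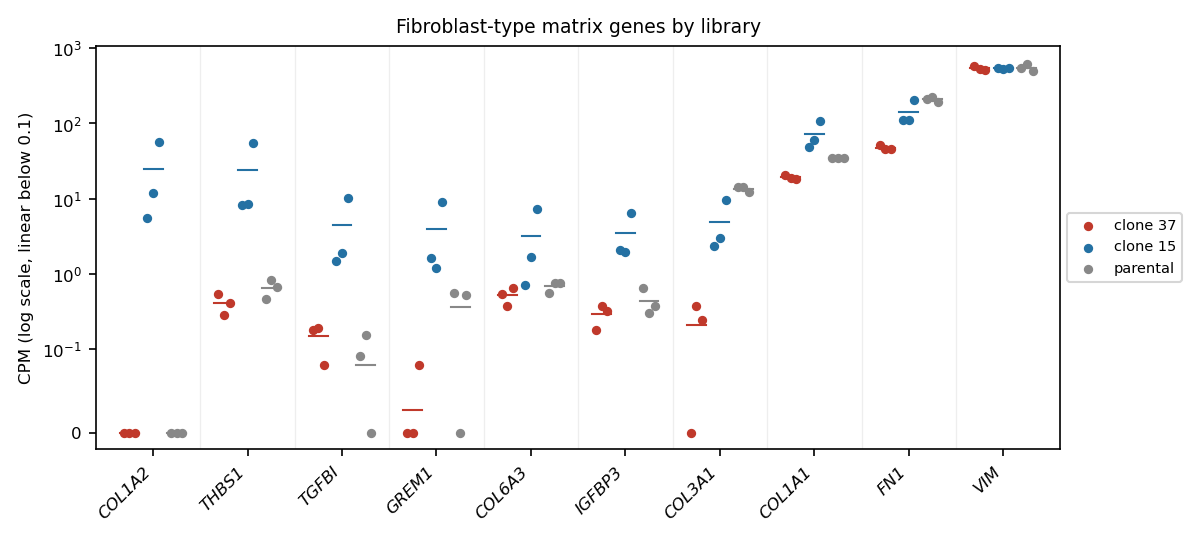
CPM of 10 matrix and fibroblast-type genes in each library, on a log scale that is linear below 0.1; points are libraries, lines are group means, and libraries 1 to 3 run from left to right. For the genes from COL1A2 to COL1A1, clone 15 replicate 3 lies above the other clone 15 libraries, and VIM is at 510 to 576 CPM in all 6 libraries of the clones.

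HEK293T cells carry a mixed identity. They came from embryonic kidney, yet they are known for neurofilament and other neural genes beside kidney transcription factors. A clone grown from 1 cell fixes whatever that cell had, including its copy number and silenced loci, beside the sites of transposon insertion.

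The whole-transcriptome test, edgeR's quasi-likelihood test with Benjamini-Hochberg adjustment and a threshold of 0.05, called 57.7% of tested genes. Calls were divided into 28.7% of genes with the higher level in clone 37 and 29.0% with the lower, and the median log2 fold change was -0.0015. For 63.5% of genes the 3 values of 1 clone did not overlap those of the other. The biological coefficient of variation was 6.30%, so that differences of modest size were called, and called genes had a median absolute log2 fold change of 0.53. The lists below are read against these shares: a list with close to 57.7% of its members called is like the transcriptome in this respect. In all sentences below, levels are CPM, fold changes are clone 37 over clone 15 on the log2 scale, and "higher" or "lower" refers to clone 37. SE is a standard error derived from the test, as the absolute log2 fold change over the square root of its F statistic. Levels are not corrected for transcript length and are compared between libraries, not between genes.

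**Figure D2:**
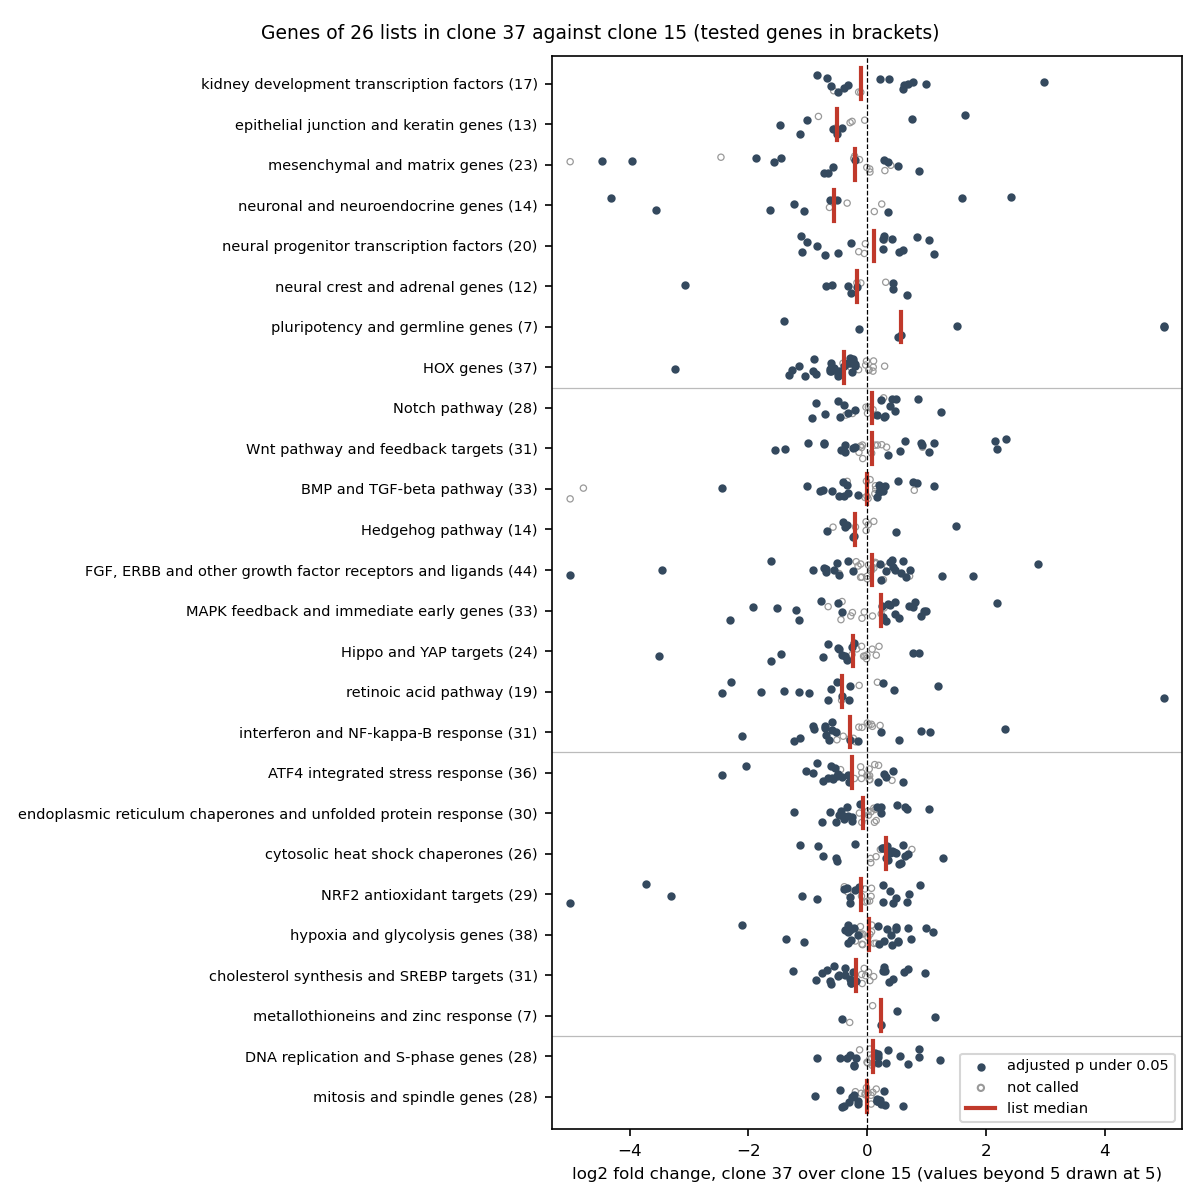
Fitted log2 fold change of every tested gene in 26 lists of lineage, signalling, stress and proliferation genes; filled points are called at an adjusted p under 0.05, open points are not, the red bar is the list median and the dashed line the median of all genes. HOX genes lie to the left, with 25 called lower and 0 called higher, whereas heat shock chaperones lie to the right with a median of 0.32.

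Lineage genes are taken first, beginning with neurons. Of 14 tested neuronal and neuroendocrine genes, 3 were higher and 7 lower in clone 37, with a median of -0.57. The neurofilament genes NEFM and NEFL and their partner INA were among the lower ones. NEFM, the medium neurofilament subunit of axons, read 135, 137 and 138 CPM in clone 37 and 2724, 2597 and 2811 CPM in clone 15, 19.8-fold lower (log2 fold change -4.31, SE 0.059, adjusted p 3.26e-29). Parental cells, at 567, 667 and 470 CPM, lay between the clones. NEFL, the light subunit, was 11.8-fold lower, at 60.9, 60.2 and 59.9 against 703, 723 and 708 CPM (log2 fold change -3.56, SE 0.057, adjusted p 1.57e-27). INA, alpha-internexin, followed at 4.47, 4.56 and 4.38 against 13.4, 14.9 and 13.3 CPM (log2 fold change -1.63, SE 0.13, adjusted p 3.63e-11). None of these triplets overlapped. The intermediate filament gene of peripheral neurons went the other way: PRPH was higher at 5.75, 4.08 and 4.78 against 1.28, 2.03 and 1.56 CPM (log2 fold change 1.60). RBFOX3, which encodes the neuronal nuclear antigen NeuN, was also higher, with 8.39, 9.88 and 6.81 against 0.97, 1.91 and 2.04 CPM (log2 fold change 2.42, 1.56 when reads of both strands were counted). NEFM and NEFL lie on the short arm of chromosome 8.

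Transcription factors of neural progenitors were split between the clones. Of 20 tested, 9 were higher and 7 lower, with a median of 0.11. POU3F3, a POU-domain factor of the forebrain and kidney, was higher at 51.4, 51.5 and 51.7 against 22.3, 26.9 and 22 CPM (log2 fold change 1.12, SE 0.08, adjusted p 1.65e-12). ZIC2, a zinc finger factor of the dorsal neural tube, was lower at 72.9, 61.6 and 67.8 against 140, 157 and 136 CPM (log2 fold change -1.09, SE 0.067, adjusted p 1.11e-13). PAX7, of dorsal neural tube and muscle progenitors, had a log2 fold change of -1.11. The low-abundance factors SOX3 (0.83) and NEUROG2 (1.03) were called higher with all libraries. Their calls, though not their direction, were lost without clone 37 replicate 1 or 3 and after thinning all libraries to the smallest total, where the values were 0.66, 0.92 and 0.87 for SOX3 and 0.88, 0.92 and 0.96 for NEUROG2. SOX3 was not called without clone 15 replicate 1, with DESeq2 or with both strands counted either. The count of higher genes fell to 5 without either of these clone 37 libraries, and to 4 after thinning. Of the central regulators of neural progenitors, SOX2 was lower at 10.9, 8.74 and 9.25 against 12.7, 14.5 and 13.8 CPM (log2 fold change -0.50, SE 0.12, adjusted p 0.000841) but was not called relative to its neighbours, and PAX6 did not pass the test (-0.031, SE 0.066, adjusted p 0.714) except after removal of GC and length trends, at -0.14.

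Among neural crest and adrenal genes, 3 of 12 were higher and 6 lower, with a median of -0.17. EDNRB, the endothelin receptor of crest cells, was 8.43-fold lower, at 1.73, 1.52 and 1.78 against 13.9, 14.8 and 14.2 CPM (log2 fold change -3.07, SE 0.16, adjusted p 2.96e-15), while parental cells read 11.1, 13.6 and 10.4 CPM. TFAP2A, an early crest factor, was higher at 102, 97.3 and 106 against 63.1, 65.6 and 63.1 CPM (log2 fold change 0.68, SE 0.059, adjusted p 1.25e-10). GATA2, of adrenal and sympathetic cells among others, had a log2 fold change of -0.59, but of -0.14, adjusted p 0.118 relative to its chromosomal neighbours, taken as the median of the 100 tested genes around it. Smaller differences were fitted for HAND2 (0.44), ERBB3 (0.43) and NGFR (-0.70); those of HAND2 and NGFR lost their call without clone 37 replicate 1 and with DESeq2. HAND2 also lost it without clone 37 replicate 2 or clone 15 replicate 1 and was -0.032 relative to its neighbours, and NGFR lost it after thinning. The count of lower genes was 2 without clone 37 replicate 1, 2 with DESeq2 and 3 relative to neighbours. SOX10, which defines later crest derivatives, was at or near 0 in all libraries.

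Kidney transcription factors moved one by one. Of 17 tested, 8 were higher and 6 lower, and their median of -0.11 became 0.11 without clone 15 replicate 2 and was also above 0 with DESeq2 and on genes with under 5% shared sequence. SIX2, which keeps nephron progenitors undifferentiated, showed the widest gap: 23.5, 24.8 and 25.8 CPM in clone 37 against 2.39, 3.91 and 3.43 in clone 15, 7.84-fold higher (log2 fold change 2.97, SE 0.14, adjusted p 6.01e-16). Clone 37 was near the parental level of 20.7, 23 and 18.5 CPM, so that clone 15 was the low one. EMX2, needed for ureteric bud growth, was higher at 10.3, 10.9 and 10.7 against 4.8, 5.42 and 6.11 CPM (log2 fold change 0.99, SE 0.14, adjusted p 6.68e-07). LHX1 (0.61), the nephron patterning factor, was higher, whereas MEIS1 (-0.84), a homeodomain partner of HOX proteins, and HOXA11 (-0.61) were lower. SALL1, a nephron progenitor factor on chromosome 16, had a log2 fold change of 0.68, which was 0.13, adjusted p 0.104 relative to its neighbours. For FOXC2, also on chromosome 16, the value of 0.77 became -0.0068, and it was not called without clone 37 replicate 3. PAX2, the kidney marker of this line, did not pass the test, with 8.12, 9.02 and 9.57 against 7.66, 12.5 and 8.9 CPM (log2 fold change -0.11, SE 0.16, adjusted p 0.586).

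HOX genes encode the factors that set position along the body axis, and they lie in 4 clusters, HOXA to HOXD. Of 37 tested HOX genes, 0 were called higher by edgeR (1 at an unadjusted p under 0.05, and 0 by DESeq2) and 25 were lower, with a median of -0.38. Lower genes numbered 8 of 11 in HOXA, 6 of 9 in HOXB, 5 of 9 in HOXC and 6 of 8 in HOXD. Cluster medians were -0.61, -0.26, -0.38 and -0.48, beside medians of 0.03, -0.16, -0.29 and 0.15 for the 100 tested genes around each cluster. Thus HOXA and HOXD stood below their surroundings by more than HOXB and HOXC did, without a test of that difference. The widest gap was that of HOXC12, at 0.456, 0.665 and 0.73 against 6.27, 5.9 and 5.42 CPM (log2 fold change -3.23, SE 0.25, adjusted p 1.06e-11), with 1.93, 1.67 and 1.36 CPM in parental cells. HOXC11 read 7.39, 6.36 and 8.6 against 17.8, 20.6 and 18 CPM (log2 fold change -1.32, SE 0.12, adjusted p 3.12e-10), and HOXA4 3.65, 3.99 and 4.62 against 9.15, 10.1 and 10.7 CPM (log2 fold change -1.27, SE 0.15, adjusted p 3.51e-08). Relative to their neighbours 4 HOX genes were called higher and 18 lower. Higher and lower genes numbered 2 and 22 after removal of trends in GC content and length, and 1 was higher after thinning, with both strands counted, with the replicate block or without clone 15 replicate 2. Restricted to genes that share little sequence with others, 16 were lower.

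**Figure D3:**
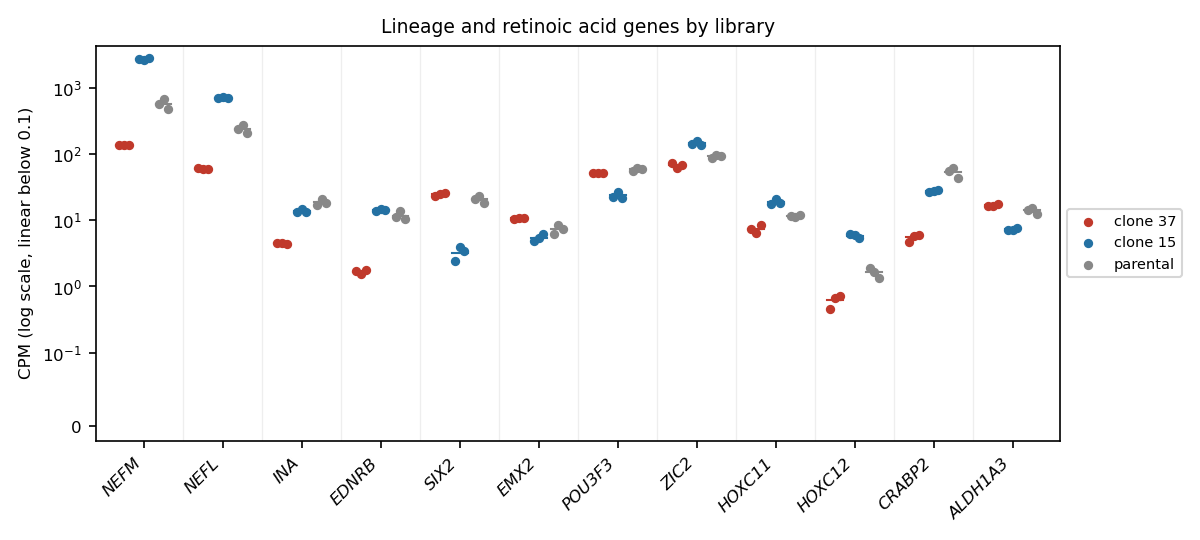
CPM of 12 lineage and retinoic acid genes in each library of clone 37, clone 15 and parental cells, on a log scale; points are libraries and lines are group means. The clones do not overlap in any of the 12 genes, with NEFM at 135 to 138 CPM in clone 37 against 2597 to 2811 in clone 15, and SIX2 at 23.5 to 25.8 against 2.39 to 3.91.

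Epithelial genes were more often lower than higher. Of 13 tested, 2 were higher and 6 lower, with a median of -0.50. DSP, desmoplakin of desmosomes, was higher at 640, 640 and 633 against 380, 349 and 410 CPM (log2 fold change 0.75, SE 0.056, adjusted p 4.02e-12). Its binding partner in the same junction, JUP or plakoglobin, was lower at 37.5, 35 and 32 against 75.1, 81.8 and 73.1 CPM (log2 fold change -1.14, SE 0.073, adjusted p 1.7e-13). SPINT2, a protease inhibitor of epithelial membranes, was 2.77-fold lower, at 11, 9.5 and 9.49 against 25.6, 31 and 27 CPM (log2 fold change -1.47, SE 0.11, adjusted p 2.43e-12). KRT8 and KRT18, the keratin pair of simple epithelia, were both lower, with log2 fold changes of -0.57 and -0.50. CDH1, E-cadherin, did not pass the test but was called lower relative to its neighbours (-0.63), at 3.47, 3.23 and 3.73 against 4.27, 4.31 and 3.86 CPM.

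Mesenchymal and matrix genes gave 4 higher and 9 lower of 23, with a median of -0.21. DDR2, a receptor kinase for fibrillar collagen, was 15.5-fold lower, with 7.76, 7.5 and 7.54 CPM in clone 37 and 124, 115 and 117 CPM in clone 15 (log2 fold change -3.96, SE 0.084, adjusted p 1.25e-24), while parental cells read 215, 258 and 241 CPM. This gap was even over the 3 clone 15 libraries, unlike those of the collagens. CDH2, N-cadherin, was lower at 67.8, 65 and 71.5 against 116, 107 and 115 CPM (log2 fold change -0.72, SE 0.061, adjusted p 6.25e-11), but had a value of 0.13 (adjusted p 0.0747) relative to its chromosomal neighbours. SNAI2, a factor of epithelial-mesenchymal transition on chromosome 8, was higher at 28, 28.9 and 32.4 against 17.3, 15.9 and 15.6 CPM (log2 fold change 0.87, SE 0.091, adjusted p 3.41e-09), which was 0.24 relative to its neighbours. VIM, vimentin, did not pass the test (-0.0062, SE 0.053, adjusted p 0.929) but was called higher with both strands counted, at 0.26. COL6A1 (0.52) was higher, and so was ZEB1 (0.29), which was no longer called relative to its neighbours or after removal of GC and length trends.

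The remaining collagen and fibronectin results moved with the fibroblast markers described above. FN1, fibronectin, read 51.9, 45.6 and 45.5 CPM in clone 37 and 112, 112 and 205 in clone 15 (log2 fold change -1.57, SE 0.33, adjusted p 0.0156), with parental cells at 213, 224 and 195 CPM; it lost its call whichever clone 37 library was left out and with the replicate block (adjusted p 0.0502). COL1A1 read 20.7, 18.9 and 18.4 against 48.2, 60.3 and 108 CPM (log2 fold change -1.88, SE 0.42, adjusted p 0.0193) and lost its call whichever clone 37 library was left out. COL3A1, at 0, 0.38 and 0.243 against 2.36, 2.99 and 9.49 CPM (log2 fold change -4.46, SE 1.30, adjusted p 0.0423), lost it likewise and also without clone 15 replicate 2, and was -3.65 without clone 15 replicate 3 and -5.12 without clone 37 replicate 2. COL1A2 was not called by edgeR with all libraries (adjusted p 0.195). It was called without clone 15 replicate 3 (adjusted p 0.0129) and, with all libraries, by DESeq2 (adjusted p 2.66e-07). The edgeR fit with the replicate block also called it (adjusted p 6.59e-50). With clone 37 near 0, however, the block terms absorb the spread of clone 15, so the block call does not measure that spread. Pooled counts put COL1A2 at least 72.2-fold lower in clone 37, against a floor of 3 counts in each library. This bound was 30.5-fold without clone 15 replicate 3, which holds most of these counts, and 117-fold without clone 15 replicate 1. THBS1, thrombospondin, changed likewise: the log2 fold change of -5.76, SE 1.93, adjusted p 0.0635 with all libraries became -4.32, adjusted p 7.82e-13 without clone 15 replicate 3. With all libraries THBS1 was called by DESeq2 (adjusted p 1.13e-07), with the replicate block, with all 9 libraries in 1 fit and after thinning. Its block call has the same limit as that of COL1A2. These genes were lower in clone 37 against each of the 3 clone 15 libraries, and by an amount that replicate 3 enlarged. The count of lower genes in the list was 4 without clone 37 replicate 2 and 5 without clone 37 replicate 3, and that of higher genes was 2 relative to chromosomal neighbours.

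Few pluripotency and germline genes passed the filter on low counts, 7 of 24, with 5 higher and 2 lower, and the median of 0.57 became -0.16 without that filter. LIN28B, an RNA-binding protein that blocks maturation of let-7 microRNAs, was higher at 230, 218 and 236 against 162, 148 and 151 CPM (log2 fold change 0.57, SE 0.055, adjusted p 8.2e-10). SALL4, a stem cell factor, was lower at 3.1, 3.23 and 2.43 against 8.65, 6.98 and 7.4 CPM (log2 fold change -1.41, SE 0.18, adjusted p 8.83e-08). The cancer-testis gene MAGEA3 read 3.92, 3.8 and 4.06 against 0, 0.12 and 0.0536 CPM (log2 fold change 6.14, with 11.1, 15.2 and 12.8 CPM in parental cells). Clone 15 held 0, 3 and 1 counts, and the log2 fold change was 5.30 without clone 15 replicate 1 and 7.31 without clone 15 replicate 2; reads could also be split with its near-identical relatives. DPPA2, of early embryos, read 1.73, 1.42 and 1.22 against 0, 0.0399 and 0 CPM. TEX15 (0.52) and UTF1 (1.51) were higher, UTF1 without a call when clone 37 replicate 1 was left out, and DNMT3B (-0.15) was lower by little, with a call that 13 of the alternatives removed, which left 1 lower gene in the list.

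Signalling begins here with growth factors and their receptors, which feed the MAPK cascade. Of 44 tested, 14 were higher and 12 lower, with a median of 0.07. NRG1, the neuregulin ligand of ERBB3 and ERBB4, was 52.3-fold lower: 0.547, 0.665 and 0.649 CPM in clone 37 against 32.9, 31.3 and 34.6 in clone 15 (log2 fold change -5.71, SE 0.17, adjusted p 3.77e-21; chromosome 8, 31639386 to 32767959). Parental cells, at 1.93, 2.12 and 3.33 CPM, were far nearer clone 37. Its receptor gene ERBB3 was higher (log2 fold change 0.43), and ERBB2, the partner receptor, was lower (log2 fold change -0.50). FGFR3, a fibroblast growth factor receptor, was lower at 87.2, 87.9 and 88.4 against 156, 182 and 158 CPM (log2 fold change -0.91, SE 0.062, adjusted p 6.84e-13). FGF13, an intracellular member of the FGF family, was higher at 28.6, 23.7 and 29.8 against 7.39, 8.05 and 8.74 CPM (log2 fold change 1.78, SE 0.11, adjusted p 6.85e-14). The ligand PDGFA was higher at 8.94, 8.26 and 8.11 against 3.49, 3.39 and 3.81 CPM (log2 fold change 1.25). IGF2, a fetal growth factor, was higher at 4.11, 4.75 and 3.81 against 0.498, 0.598 and 0.643 CPM (log2 fold change 2.88). IGFBP3, which binds IGF2, read 0.182, 0.38 and 0.324 against 2.07, 1.95 and 6.38 CPM (log2 fold change -3.45, SE 0.84, adjusted p 0.0123); it is among the genes raised in clone 15 replicate 3, was -2.76, adjusted p 1.89e-06, without that library, and lost its call whichever clone 37 library was left out.

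MAPK feedback and immediate early genes ran in both directions, with 15 higher and 8 lower of 33 and a median of 0.24. CCND1, cyclin D1, a target of MAPK and Wnt signalling, was 4.53-fold higher, at 107, 104 and 105 against 22, 26 and 21.8 CPM (log2 fold change 2.18, SE 0.071, adjusted p 4.69e-20), with parental cells between at 56.8, 66 and 57 CPM. Immediate early genes included JUN at 335, 341 and 296 against 160, 177 and 155 CPM (log2 fold change 0.99) and DUSP1 at 91.5, 88.2 and 84.9 against 42.7, 50.5 and 43.1 CPM (log2 fold change 0.96), both higher. EGR1, a further immediate early gene, did not pass the test (log2 fold change -0.087, SE 0.19, adjusted p 0.711). Feedback inhibitors of the cascade included lower genes. DUSP4, a nuclear ERK phosphatase, read 8.39, 7.22 and 6.65 against 27.3, 28.1 and 29.2 CPM (log2 fold change -1.92, SE 0.11, adjusted p 1.18e-14), with 7.74, 8.8 and 6.73 CPM in parental cells. SPRY2, an inhibitor of receptor kinase signalling, read 8.3, 7.79 and 9.89 against 19.5, 19.8 and 20.7 CPM (log2 fold change -1.19, SE 0.11, adjusted p 4.77e-10). DUSP6 (-1.52) and ETV4 (-2.31), a phosphatase and a factor induced by ERK, were lower as well, at under 1.5 CPM in every library. DUSP6 was -1.09, adjusted p 0.052, without clone 37 replicate 2 and -2.33 without clone 37 replicate 3, and was not called with both strands counted; ETV4 was -3.28 without clone 37 replicate 1. With a filter of 1 CPM in 3 libraries or with DESeq2, 5 genes of the list were lower.

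Wnt signalling runs through beta-catenin and induces its own inhibitors. Of 31 tested genes 10 were higher and 10 lower. The median of 0.08 lay between -0.021 and 0.054 with any 1 library left out, below 0 without clone 15 replicate 2, and was also below 0 with all 9 libraries in 1 fit and without the filter on low counts. The widest gap among inhibitors was that of SFRP1, a secreted protein that binds Wnt ligands, which was 5.03-fold higher: 159, 147 and 155 CPM against 30.4, 32.2 and 29.2 CPM (log2 fold change 2.33, SE 0.062, adjusted p 3.75e-22). Parental cells read 27.2, 30.7 and 23.3 CPM, close to clone 15. NOTUM, an enzyme that removes the lipid of Wnt, was higher at 4.38, 3.99 and 3.89 against 0.996, 0.997 and 0.697 CPM (log2 fold change 2.15, SE 0.25, adjusted p 2.3e-08, 3.23 after thinning). In contrast, DKK1 (-1.38) and DKK3 (-0.99), of the Dickkopf family, and LGR5, the R-spondin receptor, were lower. LGR5 read 3.92, 2.66 and 4.46 against 11.2, 9.85 and 11.6 CPM (log2 fold change -1.55, SE 0.16, adjusted p 3.36e-09), and the call of DKK1 was lost after thinning. AXIN2, the general feedback target of the pathway, did not pass the test, at 11.1, 13.9 and 10.6 against 13.1, 12.6 and 11.7 CPM (log2 fold change -0.079, SE 0.12, adjusted p 0.593), nor did CTNNB1 itself (-0.11, SE 0.052, adjusted p 0.0645), which was called lower under 6 alternatives.

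**Figure D4:**
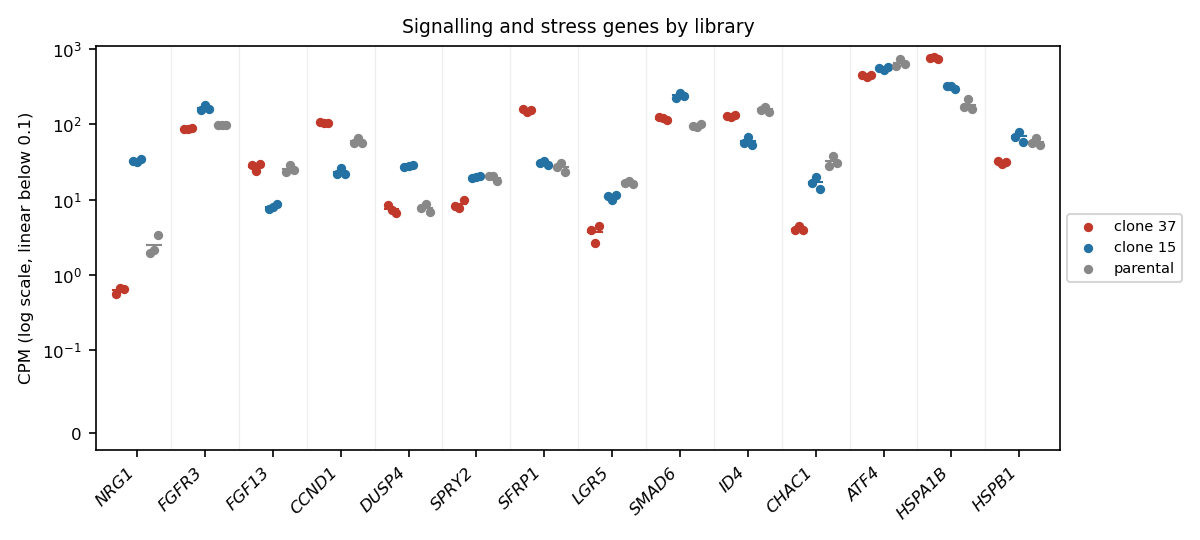
CPM of 14 signalling and stress genes in each library of clone 37, clone 15 and parental cells, on a log scale; points are libraries and lines are group means. No gene shown has clones that overlap: NRG1 is at 0.547 to 0.665 CPM in clone 37 against 31.3 to 34.6 in clone 15, and CCND1 at 104 to 107 against 21.8 to 26.0.

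BMP and TGF-beta genes had 10 higher and 11 lower of 33 (6 higher without clone 37 replicate 3) and a median of -0.0038, which lay between -0.029 and 0.0071 with any 1 library left out, above 0 without clone 37 replicate 2 or 3. Inhibitory SMADs were lower. SMAD6, which blocks BMP receptors, read 125, 120 and 113 against 227, 265 and 235 CPM (log2 fold change -1.01, SE 0.061, adjusted p 6.22e-14), with 96.3, 92.1 and 100 CPM in parental cells, and SMAD7 had a log2 fold change of -0.59. The ligand BMP4 was lower at 9.49, 9.21 and 7.22 against 15.2, 15.1 and 14.8 CPM (log2 fold change -0.80, SE 0.12, adjusted p 2.1e-06), and NOG, a secreted BMP inhibitor, was higher at 12.1, 13.8 and 13.9 against 7.42, 7.93 and 6.81 CPM (log2 fold change 0.85, SE 0.12, adjusted p 1.32e-06). Among ID genes, the direct targets of BMP signals, ID4 was higher (129, 126 and 135 against 56.3, 68.8 and 53.1 CPM, log2 fold change 1.13), ID3 lower (log2 fold change -0.41), and ID1 did not pass the test (0.015, SE 0.10, adjusted p 0.913). GREM1, another BMP inhibitor, read 0, 0 and 0.0811 against 1.63, 1.2 and 8.95 CPM; it is among the genes raised in clone 15 replicate 3, with an edgeR adjusted p of 0.077 with that library and 6.84e-07 without it. With all libraries GREM1 was called by DESeq2 (adjusted p 0.000195), with the replicate block (adjusted p 1.28e-19), with all 9 libraries in 1 fit (adjusted p 0.0333) and after thinning (adjusted p 0.00129), and without clone 37 replicate 3 its adjusted p was 0.297. The block call is limited here as it is for COL1A2.

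In the Notch pathway, where a ligand on 1 cell activates a receptor on its neighbour, 10 of 28 genes were higher and 8 lower, with a median of 0.08 that was -0.056 after thinning. Ligands and a receptor were higher: JAG1 at 33.5, 33 and 35 against 19.9, 21.2 and 14.4 CPM (log2 fold change 0.86, SE 0.11, adjusted p 3.91e-07), DLL1 (log2 fold change 0.48) and NOTCH1 (log2 fold change 0.49). Targets differed: HES1 was higher (log2 fold change 0.23), HES5 was lower at 28.8, 32 and 24.6 against 45.2, 55 and 38.3 CPM (log2 fold change -0.70, SE 0.14, adjusted p 0.00166), and HEY1 did not pass the test (0.02, SE 0.054, adjusted p 0.768) but was -0.68 relative to its chromosomal neighbours. HES1 was not called without clone 15 replicate 1, without clone 37 replicate 1 or with all 9 libraries in 1 fit. Parental cells read 5.43, 5.77 and 4.84 CPM of HES5, under either clone. The coactivator MAML2 (-0.86) and DTX4 (-0.93), a modulator of the receptor, were lower.

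Hedgehog genes gave 2 higher and 6 lower of 14, with a median of -0.21. The transcriptional effector GLI2 was lower at 19.1, 20.1 and 18.2 against 23.5, 28.3 and 25 CPM (log2 fold change -0.41, SE 0.094, adjusted p 0.00044), while the target genes PTCH1 (0.11, SE 0.065, adjusted p 0.14) and GLI1 (-0.20, SE 0.18, adjusted p 0.372) did not pass the test, although PTCH1 was called higher after removal of GC and length trends and with both strands counted. FOXF1, a target in mesenchyme, was higher at 45.5, 37 and 39.5 against 14.7, 15.7 and 12.5 CPM, 2.84-fold. It lies on chromosome 16, and its value relative to its neighbours was 0.69; that of FOXF2 went from 0.49 to -0.049, which left 1 higher gene in the list.

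Targets of YAP, the factor that the Hippo pathway restrains, were more often lower: 12 of 24 against 2 higher, with a median of -0.24. MYOF, a membrane repair protein, read 0.182, 0.095 and 0.487 against 2.78, 2.27 and 4.4 CPM (log2 fold change -3.51, SE 0.42, adjusted p 8.42e-08, -4.42 without clone 37 replicate 3). DLC1, a GTPase-activating protein, read 52.3, 50.2 and 54 against 146, 138 and 145 CPM (log2 fold change -1.45, SE 0.06, adjusted p 1.5e-17), and AMOTL2, which binds YAP, 14.5, 16.2 and 14.5 against 22.4, 26.9 and 27.2 CPM (log2 fold change -0.75, SE 0.10, adjusted p 3.47e-07). The standard readouts CCN1 (-0.65) and CCN2 (-0.47) were lower, and YAP1 itself was lower (log2 fold change -0.22). CCN2 lost its call with DESeq2, with both strands counted, and without clone 15 replicate 3, clone 37 replicate 1 or clone 37 replicate 2. CCN1 read 8.85, 10.2 and 7.38 against 13.3, 12.6 and 15.7 CPM. Without clone 15 replicate 3, the library with raised fibroblast genes, 2 genes of the list were higher and 11 lower. Higher genes numbered 5 relative to chromosomal neighbours, 5 after removal of GC and length trends, 0 after thinning, and 1 with DESeq2, on genes with under 5% shared sequence, without clone 15 replicate 1 or without any of the clone 37 libraries.

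Retinoic acid, made from vitamin A by ALDH1A enzymes and carried by CRABP and FABP proteins, controls HOX genes among others. Of 19 tested genes of this pathway 4 were higher and 12 lower, with a median of -0.43, and 84.2% were called. CRABP2, which hands retinoic acid to its receptor, was 4.89-fold lower, at 4.74, 5.79 and 6.08 against 26.3, 27.3 and 28.4 CPM (log2 fold change -2.29, SE 0.12, adjusted p 1.04e-15), below the parental 56.2, 60.9 and 44 CPM. FABP5, the carrier to another nuclear receptor, read 15.2, 13.2 and 15.2 against 0.0262, 0.0797 and 0 CPM, with 10.9, 13.2 and 11 CPM in parental cells. The carriers thus differed in opposite directions, although FABP5 shares sequence with processed copies. The synthesis genes split too: ALDH1A1 was lower at 0.456, 0.19 and 0.406 against 1.84, 1.47 and 2.68 CPM (log2 fold change -2.44, SE 0.40, adjusted p 8.14e-06), whereas ALDH1A3 was higher at 16.6, 16.2 and 17.4 against 7.24, 7.14 and 7.56 CPM (log2 fold change 1.20, SE 0.11, adjusted p 5.79e-10). RDH10, the dehydrogenase ahead of them on chromosome 8, had a log2 fold change of 0.46, and of -0.27 relative to its neighbours. Receptor genes RXRG (-1.79) and RARG (-0.66) were lower, and RARA (-0.13, SE 0.088, adjusted p 0.192) and RARB (0.17, SE 0.14, adjusted p 0.291) did not pass the test.

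Interferon and NF-kappa-B genes gave 5 higher and 14 lower of 31, with a median of -0.29. DDX58, the sensor RIG-I, is not in these counts because its symbol was not matched; under the name in the annotation it did not pass the test (log2 fold change -0.041, SE 0.16, adjusted p 0.846), and it was called higher relative to its chromosomal neighbours (0.62, adjusted p 0.00263). EIF2AK2, the kinase PKR that halts translation, was higher at 168, 166 and 178 against 96.6, 90.2 and 86.2 CPM (log2 fold change 0.91, SE 0.058, adjusted p 1.79e-13), and so was IFIH1, the sensor MDA5, at 3.38, 3.61 and 3.49 against 0.656, 0.877 and 0.536 CPM (log2 fold change 2.32, SE 0.27, adjusted p 3.32e-08). Parental cells read 162, 183 and 162 CPM of EIF2AK2. ISG15, a ubiquitin-like protein, was higher at 7.12, 7.5 and 6.49 against 3.38, 4.23 and 2.36 CPM (log2 fold change 1.06, SE 0.19, adjusted p 1.83e-05). The antiviral membrane protein IFITM3 was lower at 3.74, 3.7 and 2.92 against 7.13, 8.57 and 8.85 CPM (log2 fold change -1.24, SE 0.17, adjusted p 3.56e-07). IRF9 (-0.90) and RELB (-0.90) were lower, and neither was called relative to its chromosomal neighbours. IRF9 was -0.61, adjusted p 0.0904, without clone 37 replicate 3, and RELB was not called with DESeq2 or after thinning. Restricted to genes that share little sequence with others, 9 were lower.

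Stress programmes begin with the integrated stress response, in which phosphorylation of eIF2 by PKR, PERK, GCN2 or HRI raises translation of ATF4, and ATF4 induces genes of amino acid supply and redox balance. Lower genes prevailed: 17 of 36 against 5 higher, with a median of -0.26, although the kinase gene EIF2AK2 was higher. The tRNA synthetase genes WARS and SARS are not in these counts because their symbols were not matched; under the names in the annotation they were lower as well, with log2 fold changes of -0.91 and -0.49. CHAC1, which degrades glutathione, was 4.12-fold lower: 3.92, 4.46 and 3.97 CPM in clone 37 and 16.7, 20.2 and 13.8 CPM in clone 15 (log2 fold change -2.04, SE 0.15, adjusted p 6.4e-12), both below the parental 27.9, 37.8 and 30.6 CPM. INHBE, an activin subunit made in liver and under stress, read 0.365, 0.38 and 0.324 against 1.91, 2.11 and 1.88 CPM (log2 fold change -2.45, SE 0.37, adjusted p 1.83e-06, -1.63 with both strands counted). PCK2, a mitochondrial enzyme on chromosome 14, read 35.1, 38.4 and 37 against 72.9, 83.2 and 69 CPM (log2 fold change -1.02, SE 0.075, adjusted p 2.86e-12), and -0.41 relative to its neighbours. ATF4 itself was lower at 450, 421 and 455 against 562, 525 and 575 CPM (log2 fold change -0.32, SE 0.053, adjusted p 7.1e-06), as was DDIT3, the factor CHOP, at 6.02, 7.69 and 6.97 against 9.13, 9.09 and 9.6 CPM (log2 fold change -0.42, SE 0.14, adjusted p 0.00951). DDIT3 lost its call with DESeq2 (adjusted p 0.0511), relative to its neighbours (adjusted p 0.0501) and without clone 37 replicate 1 (adjusted p 0.0887). CEBPG, a dimer partner of ATF4, was higher at 129, 126 and 126 against 86.2, 80.7 and 85.6 CPM (log2 fold change 0.60, SE 0.057, adjusted p 5.29e-10), and so was ATF3 (log2 fold change 0.31). SLC7A5, an amino acid transporter on chromosome 16, had a log2 fold change of 0.43, but of -0.32 relative to its neighbours. TRIB3 (0.045, SE 0.10, adjusted p 0.713), a target induced by CHOP, and SLC7A11 (0.042, SE 0.055, adjusted p 0.531), a cystine transporter, did not pass the test; SLC7A11 was called lower relative to its neighbours and after removal of GC and length trends.

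ATF4 acts through a composite site for C/EBP and ATF factors. TGATGNAA, searched on both strands, was found in the 250 bases ahead of the start of 3 of 28 list genes with a promoter in RefSeq, those of CHAC1, ASNS and ATF3, a share of 10.7%, against 3.14% of all 35116 promoters of that length. Only 1 promoter was searched per list gene, whereas the 35116 were not reduced to 1 per gene, so the shares are in unlike units. Among genes of the list that differed, 1 of 15 lower and 1 of 4 higher genes held the letters in that promoter. The CHAC1 and ATF3 promoters are shown because these genes differed in opposite directions with the same letters present; capitals mark the match (GRCh38.p14, RefSeq).
CHAC1 (chr15:40953221-40953470, plus strand): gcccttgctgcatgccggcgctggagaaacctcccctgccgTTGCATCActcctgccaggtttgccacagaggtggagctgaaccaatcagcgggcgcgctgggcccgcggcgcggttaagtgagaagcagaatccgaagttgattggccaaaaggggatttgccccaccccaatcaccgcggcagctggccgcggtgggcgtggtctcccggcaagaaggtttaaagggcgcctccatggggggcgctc
ATF3 (chr1:212565157-212565406, plus strand): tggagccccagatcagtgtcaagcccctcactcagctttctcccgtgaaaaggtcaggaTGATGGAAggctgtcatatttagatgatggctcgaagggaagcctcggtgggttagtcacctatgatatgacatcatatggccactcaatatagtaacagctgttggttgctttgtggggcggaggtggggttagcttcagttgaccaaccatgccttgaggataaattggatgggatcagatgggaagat

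The unfolded protein response of the endoplasmic reticulum was split, with 7 higher and 13 lower of 30 and a median of -0.07. HSPA5, the chaperone BiP that all its branches induce, did not pass the test, at 411, 382 and 421 against 415, 397 and 441 CPM (log2 fold change -0.042, SE 0.054, adjusted p 0.529). CALR, calreticulin, was lower at 442, 412 and 428 against 650, 662 and 668 CPM (log2 fold change -0.62, SE 0.05, adjusted p 1.85e-11), and SDF2L1, a cofactor of BiP, was lower (log2 fold change -0.76). PDIA4, a disulfide isomerase on the distal long arm of chromosome 7, read 126, 113 and 111 against 270, 271 and 281 CPM (log2 fold change -1.23, SE 0.057, adjusted p 1.75e-16), and -0.34 relative to its neighbours. DNAJB9, a cochaperone induced by XBP1, was higher at 17.8, 17.2 and 17.3 against 9.73, 8.13 and 7.13 CPM (log2 fold change 1.05, SE 0.12, adjusted p 2.14e-08). CRTAP (0.68), of collagen modification, and DERL1 (0.63), of protein export to the proteasome, were higher; DERL1, on chromosome 8, was 0.015 relative to its neighbours.

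Cytosolic chaperones of the heat shock response, which the factor HSF1 induces, were more often higher. Of 26 tested, 15 were higher and 6 lower, a share called of 80.8%, with a median of 0.32, which lay between 0.24 and 0.33 without any 1 library. HSPA1B, the inducible HSP70, read 758, 778 and 750 against 327, 324 and 293 CPM (log2 fold change 1.28, SE 0.054, adjusted p 2.04e-17), with 172, 219 and 159 CPM in parental cells. It shares 73.2% of its 75-base words with another gene; its near-identical copy HSPA1A was counted at 0.438 CPM or less in every library of the clones, so the split of reads between the copies is uncertain. DNAJB1, the HSP40 partner of HSP70, was higher at 153, 148 and 151 against 93.8, 92 and 95.8 CPM (log2 fold change 0.69, SE 0.055, adjusted p 1.55e-11). CHORDC1, an HSP90 cochaperone, was higher at 205, 207 and 213 against 144, 126 and 134 CPM (log2 fold change 0.63, SE 0.058, adjusted p 2.49e-10). The genes of HSP90 and of constitutive HSC70, HSP90AA1 (0.062, SE 0.056, adjusted p 0.353) and HSPA8 (0.057, SE 0.057, adjusted p 0.404) did not pass the test, but were called higher relative to their neighbours, at 0.62 and 0.16. Opposite in direction was HSPB1, the small heat shock protein HSP27, at 32.9, 29.7 and 31.4 against 68.3, 79.9 and 58.8 CPM (log2 fold change -1.14, SE 0.093, adjusted p 1.7e-09). SERPINH1, the collagen chaperone HSP47, was lower at 70.7, 68.4 and 62.6 against 109, 120 and 110 CPM (log2 fold change -0.75, SE 0.063, adjusted p 5.32e-11). DNAJB6, on the distal long arm of chromosome 7, had a log2 fold change of -0.83 and of 0.023 relative to its neighbours, and by that measure 3 genes of the list were lower.

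HSF1 binds inverted repeats of a short unit. The letters GAANNTTC and TTCNNGAA, searched on both strands, were found ahead of 9 of 25 list genes, 36.0%, against 11.6% of all promoters. Here too 1 promoter was searched per list gene, and the shares are in unlike units. The letters stood in 2 of 14 higher genes, HSPA1B and CHORDC1, and in 4 of 6 lower genes, HSPB1, SERPINH1, DNAJB6 and DNAJA1. They thus stood in genes of both directions. Relative to neighbours, DNAJA1 was called higher (0.14, adjusted p 0.0483) and DNAJB6 was not called (0.023, adjusted p 0.775). A promoter from each direction is shown, with the matches in capitals (GRCh38.p14, RefSeq). The letters start at 6 places in CHORDC1, some of them overlapping, and at 1 place in HSPB1.
CHORDC1 (chr11:90223050-90223299, minus strand): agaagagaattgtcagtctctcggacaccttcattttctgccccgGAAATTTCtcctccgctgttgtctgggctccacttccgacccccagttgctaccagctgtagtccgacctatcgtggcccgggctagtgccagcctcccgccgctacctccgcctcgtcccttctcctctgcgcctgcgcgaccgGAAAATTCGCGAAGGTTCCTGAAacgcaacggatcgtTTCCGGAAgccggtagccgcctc
HSPB1 (chr7:76302423-76302672, plus strand): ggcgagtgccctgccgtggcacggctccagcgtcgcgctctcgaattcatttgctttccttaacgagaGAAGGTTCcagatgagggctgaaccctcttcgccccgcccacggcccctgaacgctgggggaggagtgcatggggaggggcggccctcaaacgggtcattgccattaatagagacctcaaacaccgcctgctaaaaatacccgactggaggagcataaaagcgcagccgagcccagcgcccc

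Oxidative stress genes under NRF2 gave 8 higher and 11 lower of 29, with a median of -0.10. FTL, the ferritin light chain, was lower at 138, 128 and 132 against 232, 248 and 240 CPM (log2 fold change -0.85, SE 0.054, adjusted p 1.7e-13). FTL has many processed copies, and restricted to genes that share little sequence with others 7 members of the list were lower. Relative to chromosomal neighbours 5 were higher. ME1, malic enzyme, was higher at 50.3, 53.1 and 50 against 32.3, 32.8 and 31.6 CPM (log2 fold change 0.67, SE 0.07, adjusted p 4.24e-09), and PIR, an iron-binding protein, had a log2 fold change of 0.70. Further targets of the factor did not share a direction: NQO1 did not pass the test (-0.33, SE 0.21, adjusted p 0.196), HMOX1 was lower (log2 fold change -0.29) and GCLM higher (log2 fold change 0.39). NQO1 was called lower relative to its neighbours (-0.74) and without clone 15 replicate 2. HMOX1 was not called relative to its neighbours, after removal of GC and length trends or without clone 37 replicate 1, and GCLM was not called after removal of those trends. The aldo-keto reductase AKR1C1 read 0.0912, 0 and 0.0811 against 0.892, 0.638 and 1.07 CPM, near 0 in clone 37.

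Hypoxia and glycolysis genes gave 14 higher and 11 lower of 38, with a median of 0.03, which was below 0 without clone 15 replicate 2, without clone 15 replicate 3 and with both strands counted. SLC2A3, the glucose transporter GLUT3, was 4.29-fold lower at 1.92, 1.99 and 1.7 against 8.31, 7.57 and 8.2 CPM (log2 fold change -2.10, SE 0.18, adjusted p 8.97e-11), and parental cells read 46.4, 43 and 29.1 CPM, above both clones. Brain-type isoenzymes of glycolysis were lower: ALDOC at 6.48, 5.32 and 4.95 against 14.2, 15.1 and 13.9 CPM (log2 fold change -1.37, SE 0.13, adjusted p 7.4e-10) and ENO2 at 19.4, 21.6 and 17.4 against 40, 41.7 and 40.3 CPM (log2 fold change -1.06, SE 0.085, adjusted p 1.87e-11). ALDOA, the muscle and general isoenzyme, was higher at 16.7, 16.1 and 15.3 against 7.6, 8.21 and 8.69 CPM (log2 fold change 0.99, SE 0.12, adjusted p 2.72e-08). BNIP3, of mitophagy, was higher (log2 fold change 0.74), and HIF1A, on chromosome 14, had a log2 fold change of -0.28, but of 0.16 (adjusted p 0.0229) relative to its neighbours. ANKRD37 had a log2 fold change of 1.11 on the transcript strand and 0.15, adjusted p 0.704, with both strands counted. It was also not called relative to its neighbours (0.67, adjusted p 0.0508) or after thinning (0.57, adjusted p 0.191).

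Sterol genes were lower in 16 of 31 cases and higher in 8, with a median of -0.20. The factor SREBF1 was lower at 49.2, 51.4 and 52.4 against 84.6, 97.6 and 77.3 CPM (log2 fold change -0.76, SE 0.074, adjusted p 1.78e-09), as were TM7SF2, a sterol reductase, at 17.2, 15.7 and 15 against 36.9, 42.1 and 35.3 CPM (log2 fold change -1.25, SE 0.091, adjusted p 2.46e-12), and FADS2, a fatty acid desaturase (log2 fold change -0.86). MSMO1, a methylsterol oxidase, was higher at 99.5, 93.6 and 101 against 51.2, 49.7 and 49.7 CPM (log2 fold change 0.97, SE 0.061, adjusted p 1.17e-13). SQLE on chromosome 8 (0.69) and MVD on chromosome 16 (0.62) had values of 0.065 and -0.13 relative to their neighbours.

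Of 7 metallothionein and zinc genes 3 were higher and 1 lower, with a median of 0.24. The zinc importer SLC39A10 was higher at 115, 115 and 118 against 84.7, 80.7 and 81 CPM (log2 fold change 0.50, SE 0.057, adjusted p 1.61e-08). MT1X (1.14), on chromosome 16, was not called relative to its neighbours, SLC30A1 (0.24) was not called after removal of GC and length trends, and SLC30A10 (-0.42) was lower, but was not called with DESeq2 or without clone 15 replicate 1, clone 37 replicate 1 or clone 37 replicate 2.

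Proliferation genes held no shared direction. DNA replication genes gave 11 higher and 7 lower of 28 with a median of 0.09, and mitosis genes 8 higher and 9 lower of 28 with a median of 0.0016, which changed sign under 10 alternatives. CCNE2, a cyclin of the entry into S phase on chromosome 8, was higher at 33.1, 35.9 and 33.5 against 15.9, 14.9 and 12.9 CPM (log2 fold change 1.22, SE 0.092, adjusted p 5.44e-12, 0.53 relative to its neighbours). MCM5, a helicase subunit, was lower at 120, 111 and 116 against 196, 216 and 211 CPM (log2 fold change -0.84, SE 0.056, adjusted p 4.25e-13). UBE2C, which drives mitotic exit, was lower at 51.9, 52.9 and 53.3 against 92.7, 104 and 96.3 CPM (log2 fold change -0.89, SE 0.064, adjusted p 1.9e-12), and HMMR, a spindle protein, was higher (log2 fold change 0.61). GINS2 (0.88) and CDT1 (0.87), replication licensing genes of chromosome 16, were 0.11 and 0.12 relative to their neighbours, and neither was then called. Higher replication genes numbered 7 without clone 37 replicate 3, with all 9 libraries in 1 fit or relative to neighbours. Higher mitosis genes numbered 4 without clone 37 replicate 3, 3 after removal of GC and length trends, and 5 relative to neighbours or after thinning.

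Most of the largest differences lay outside these programmes. Beside PUDP, STS and FABP5, genes with the largest increase among abundant protein-coding genes were ANOS1, KIAA2012, UNCX, LCP1, ZNF737, TENM1 and NPFFR2. UNCX, a homeobox gene of the somite and of neurons, read 16.1, 15.2 and 15.8 against 0.236, 0.319 and 0.161 CPM (chromosome 7, 1232907 to 1237318; log2 fold change 5.97, SE 0.22, adjusted p 5.54e-19). LCP1, an actin-bundling protein known from blood cells and tumours, read 33, 30 and 28.3 against 1.39, 0.997 and 1.02 CPM (chromosome 13, 46125920 to 46211871; log2 fold change 4.69, SE 0.14, adjusted p 1.28e-20). TENM1, a teneurin of synapse formation, read 124, 140 and 120 against 7.11, 5.82 and 6.43 CPM (chromosome X, 124375903 to 124963817; log2 fold change 4.29, SE 0.087, adjusted p 1.25e-24). Parental cells had 8.38, 9.94 and 8.17 CPM of UNCX, 63.2, 75.2 and 62.6 of LCP1 and 81.4, 62.9 and 76.1 of TENM1, so that in these 3 genes clone 15 was the low one. NPFFR2, a neuropeptide receptor, at 13.2, 12.6 and 14.8 against 0.813, 0.678 and 1.13 CPM, and KIAA2012, at 19.9, 19.4 and 17.3 against 0.184, 0.12 and 0.268 CPM, were low in parental cells as well, at 0.461, 0.228 and 0.454 and 0, 0 and 0.0757 CPM.

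The genes with the largest decrease, beside SHROOM4, GBGT1 and CPXM1, were ZC3HAV1L, NRG1, ARMCX4, MYOM2, SYT11, NEFM and BDH1. MYOM2, a protein of the muscle M band, read 9.85, 10.7 and 7.79 against 246, 239 and 246 CPM (chromosome 8, 2045040 to 2165552; log2 fold change -4.69, SE 0.083, adjusted p 1.82e-26) and 43.5, 37.2 and 41 CPM in parental cells. SYT11, a synaptotagmin of vesicle traffic, read 0.365, 0.665 and 0.973 against 13.7, 12.4 and 15.3 CPM (chromosome 1, 155859509 to 155885199; log2 fold change -4.32, SE 0.22, adjusted p 1.13e-15). BDH1, which makes and uses ketone bodies in mitochondria, read 0.73, 0.57 and 0.892 against 11.8, 14.1 and 13.2 CPM (chromosome 3, 197509783 to 197573323; log2 fold change -4.12, SE 0.20, adjusted p 7.57e-16). ZC3HAV1L read 0.365, 0.57 and 0.162 CPM in clone 37 against 19, 21.5 and 17.6 in clone 15 and 39.4, 42.9 and 39.4 in parental cells, so that clone 37 was the low one. ARMCX4 was at 0.73, 0.95 and 0.649 against 21.6, 18.3 and 21.1 CPM, with parental cells between at 8.29, 8.27 and 8.62 CPM.

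Some genes were on in 1 clone, at a mean of at least 2 CPM, and near 0 in the other, with at most 3 counts over its 3 libraries. Of 14650 genes that could be judged, 19 (0.130%) were on in clone 37 alone of the pair and 15 (0.102%) in clone 15, and 8 and 10 of these were protein-coding. Clone 15 was sequenced more deeply, so that 3 summed counts were 0.0353 CPM there (FABP5) and 0.0879 CPM in clone 37 (B3GALNT1). The shares, and the floors in counts given below, thus rest on unlike levels in the clones. Several of these genes were neighbours. On the short arm of chromosome X the consecutive tested genes PUDP, STS, PNPLA4, ENSG00000285679 and ANOS1, from 7048920 to 8732186, were all higher. PNPLA4, a lipase of retinyl esters, read 11.1, 10.9 and 9.33 against 1.13, 0.718 and 1.02 CPM, and ANOS1, the neuronal guidance protein anosmin, 24.3, 28 and 24.9 against 0, 0.159 and 0.643 CPM. The genes on either side, ENSG00000285756 and TBL1X, were expressed in both clones, with log2 fold changes of 0.55 and 0.99. PUDP, STS and PNPLA4 were at 12.7, 9.95 and 11.9 CPM on average in parental cells, whereas ANOS1 was at 0.729 CPM there. On chromosome 8, TNFRSF10A, a death receptor for the ligand TRAIL, and its divergent neighbour TNFRSF10A-DT had 0 counts in clone 37. TNFRSF10A read 8.55, 9.65 and 7.61 CPM in clone 15 and 0.553, 0.607 and 0.303 CPM in parental cells (chromosome 8, 23190452 to 23225126), which puts it at least 32.6-fold lower in clone 37 than in clone 15 against a floor of 3 counts in each library.

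Further genes near 0 in clone 15 were SLC19A3, a thiamine transporter, with 198 counts in clone 37 against 0 and at least 53.3-fold higher, and the cancer-testis gene MAGEB2, with 89 against 0 and at least 23.9-fold higher. STEAP1B, CYP7B1 and PTGR1, at means of 3.82, 2.69 and 2.26 CPM in clone 37, had 2, 1 and 1 counts in clone 15. Their ratios of pooled counts were 155 (95% exact interval 42 to 1293), 223 (39 to 8891) and 186 (32.5 to 7456). PTGR1, a prostaglandin reductase under NRF2, had a log2 fold change of 3.04 with both strands counted, which lets reads of the other strand enter. Near 0 in clone 37 were B3GALNT1, a glycosyltransferase, with 3 against 765 counts and a ratio of 105 (35.9 to 512), and MLC1, a membrane protein of astrocytes, with 1 against 186 counts and a ratio of 76.8 (13.6 to 3051). PTN, the growth factor pleiotrophin, had 0 counts in clone 37 and 176 in clone 15, at least 8.08-fold lower. Intervals and floors cover counting error only.

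Differences also followed chromosomes. Chromosome 16 had a median log2 fold change of 0.54, with 87.2% of 846 tested genes above 0, 586 called higher and 28 lower. Chromosome 14 had a median of -0.50, with 11.4% of 569 genes above 0, 20 called higher and 405 lower. Chromosome 8 was divided: beyond 40 Mb the median was 0.62, with 292 higher and 17 lower of 402, and in the first 40 Mb -0.11, with 41 and 80 of 217. Shorter stretches stood apart in windows of 20 Mb, among them 20 to 40 Mb of chromosome 18 (median -1.0, 73 of 80 lower), 140 to 160 Mb of chromosome 7 (-0.86, 97 of 116 lower) and 160 to 180 Mb of chromosome 4 (0.76, 37 of 44 higher). DNA copy number was not measured, and its part in these differences was not tested. NEFM, NEFL, NRG1 and DLC1 lie in the first 40 Mb of chromosome 8, and their log2 fold changes, from -1.45 to -5.71, were far below the median of that stretch. Relative to their neighbours 8963 genes were called, against 10223 without that correction.

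**Figure D5:**
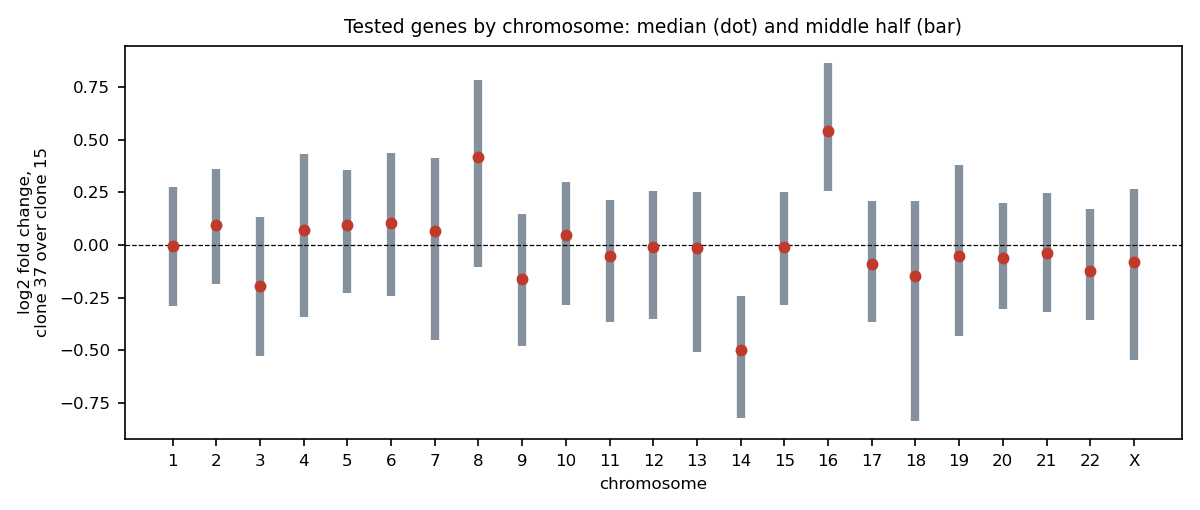
Median (dot) and middle 50% (bar) of the log2 fold change, clone 37 over clone 15, of the tested genes of each chromosome; the dashed line is the median of all genes. Chromosomes 8 and 16 lie above the line with medians of 0.42 and 0.54, and chromosome 14 lies below it at -0.50.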

How the data were processed

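Gene counts of 9 libraries of HEK293T cells were used as deposited, in STAR's per-gene layout. Reads were aligned with STAR 2.7.10a to hg38 after FastQC 0.11.9, per the submitters' processing notes; the annotation release is not given in the sources used here. Counts in column 4 of the deposited files, those on the transcript strand of the directional kit, were taken as raw counts, and the 4 summary rows of each file were dropped. Positions come from GENCODE 29 on GRCh38.

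Clone 37 was compared with clone 15 in edgeR 4.0.16 (default filter by expression, TMM, quasi-likelihood test, Benjamini-Hochberg adjustment over all tested genes, threshold 0.05). Depth ranged from 10334090 to 38093340 counts. On simulated counts of 17358 genes with 200 changed, the test recovered 96% of 2-fold and 80% of 1.5-fold changes, and 1.12% of its calls were false. The changed genes were drawn from well-counted genes only, and no chromosome was shifted as a block. These shares therefore do not carry over to genes with few counts, or to the data, where 57.7% of tested genes were called. Alternatives changed the normalization, test (DESeq2 1.42.0), filter, strand, depth, gene types, shared sequence, GC content and length, chromosomal neighbourhood, replicate block and each library in turn.

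Named genes were the 10 largest increases and 10 largest decreases among called protein-coding genes with a mean of at least 5 CPM and groups that do not overlap, up to 3 in each direction per list with a mean of at least 1 CPM, ligands, receptors and central regulators, and genes on in 1 clone and near 0 in the other. The members and lists were chosen with earlier results of these data known. KRT18, FN1, TGFBI, COL6A3, THBS1, GREM1, IGFBP3, UTF1, DUSP6, ETV4 and the gene families of the closing section were named after their values were seen. Motifs were searched in RefSeq promoters of GRCh38.p14. The integrated reporters are not analysed here. 1 of the stress lists and some members of other lists are not reported here.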

Additional observations from a re-analysis of the deposited data

How the results depend on the processing

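The number of genes called, 10223, was 8595 among protein-coding genes only, 8603 after thinning all libraries to the smallest, 8963 relative to chromosomal neighbours, 8969 with DESeq2 and 11033 with both strands counted, and lay between 9069 and 10454 with any 1 library left out. Called differences of at least 2-fold numbered 518 higher and 725 lower among protein-coding genes only, against 871 and 1238. With DESeq2, medians were -0.31 for neuronal genes, 0.25 for neural progenitor factors, 0.27 for pluripotency genes, -0.21 for interferon genes, 0.27 for heat shock chaperones and 0.27 for chromosome 8. After removal of GC and length trends they were 0.36 for pluripotency, -0.17 for interferon and -0.13 for sterol genes. Relative to neighbours they were 0.26 for heat shock and -0.083 for sterol genes, and on genes with under 5% shared sequence -0.16 for interferon, 0.26 for heat shock and -0.032 for NRF2 genes. Without the filter on low counts they were -0.16 for pluripotency, 0.25 for heat shock, 0.24 for chromosome 8, -0.62 for chromosome 14, -0.52 for chromosome 18 and -0.24 for chromosome X. The Notch median was -0.056 after thinning, the pluripotency median 0.26 with all 9 libraries in the fit, and that of chromosome 18 -0.27 with both strands counted. With 1 library left out, medians ranged from -0.24 to 0.11 for kidney factors, from -0.26 to -0.21 for interferon genes, from 0.24 to 0.33 for heat shock chaperones and from -0.30 to -0.15 for chromosome 18. The ranges were 0.13 to 0.23 for MAPK genes, 0.099 to 0.24 for metallothionein and zinc genes and 0.0103 to 0.145 for Notch genes. They were -0.15 to -0.045 for NRF2 genes, -0.098 to -0.031 for unfolded protein response genes and 0.022 to 0.101 for growth factors and receptors. Genes on in clone 37 and near 0 in clone 15 numbered 10 at 5 CPM and 9 when near 0 meant 0 counts; those on in clone 15 numbered 34 at 1 CPM, 6 at 5 CPM and 7 with 0 counts. Of the named genes called, these changed sign relative to their neighbours: FOXC2 (-0.0068), HAND2 (-0.032), FOXF2 (-0.049), RDH10 (-0.27), SLC7A5 (-0.32), MVD (-0.13), DNAJB6 (0.023), CDH2 (0.13), DNAJA1 (0.14) and HIF1A (0.16). So did RFC4, not named above, which went from -0.33 to 0.12. The value of DNAJA1 without that correction was -0.50. Of named genes that did not pass the test, HEY1 (-0.68), SLC7A11 (-0.30) and RIGI, formerly DDX58 (0.62), changed sign relative to neighbours, AXIN2 (0.029), EGR1 (0.039) and SLC7A11 (-0.21) after removal of GC and length trends, PAX6 (0.035), HEY1 (-0.0030) and EGR1 (0.25) after thinning, VIM (0.26) with both strands counted and ID1 (-0.0009) with the filter of 1 CPM. With 1 library left out, values on both sides of 0 were found for PAX2 (-0.28 to 0.11), VIM (-0.044 to 0.026), PAX6 (-0.069 to 0.013), HEY1 (-0.028 to 0.039), ID1 (-0.10 to 0.11), EGR1 (-0.21 to 0.0046), RARB (-0.019 to 0.30), TRIB3 (-0.059 to 0.14), HSPA5 (-0.096 to 0.0023), HSPA8 (-0.016 to 0.11), HSP90AA1 (-0.017 to 0.098) and RIGI (-0.13 to 0.065). The cause of these shifts was not tested.

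With the replicate number as a block, 10490 genes were called. Deviations of same-numbered libraries correlated at -0.026, 0.022 and 0.0063 over genes, and not every library correlated best with its own number. The main fit used no pairing. The labels state none, and these correlations cannot show whether same-numbered libraries shared a culture or a preparation batch. Clone, integrand expression and read length cannot be told apart, and each clone is 1 line. Transcripts at a few counts per library are limited by the depth of clone 37. COL1A2, THBS1 and GREM1 were not called by edgeR with all libraries, but were called without clone 15 replicate 3 and, with all libraries, by DESeq2. Their calls with the replicate block do not measure the spread of clone 15, because with clone 37 near 0 the block terms absorb it. Leaving out any clone 37 library removed the calls of COL1A1, COL3A1 and IGFBP3.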

Other observations

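The gene families below were chosen after their values were seen, and none was tested against other genes. Zinc finger genes of chromosome 19 with ZNF symbols, most of them KRAB repressors of transposable elements, had a median log2 fold change of 0.33 in clone 37 against clone 15, with 114 higher and 32 lower of 208. Other protein-coding genes of the same chromosome had a median of -0.16, with 161 higher and 319 lower of 750. ZNF genes elsewhere had a median of 0.18, with 104 higher and 49 lower of 237.

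Histone genes had a median of -0.24, with 10 higher and 30 lower of 50. Their copies share sequence and many of their transcripts lack a poly(A) tail, which rRNA depletion retains. Of the 13 protein-coding genes of mitochondrial DNA, 1 was higher and 6 were lower, a share called of 53.8% against 57.7% of all tested genes. Processed pseudogenes had a median of -0.33, with 41 higher and 142 lower of 485; 37.7% were called. Their summed levels were 1226, 1297 and 1234 CPM in clone 37 and 1213, 1481 and 1207 CPM in clone 15, where replicate 2 was the highest. The read length also differs between the clones, and its part and that of clone 15 replicate 2 were not tested.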
